A study of Mus musculus with 8 samples.

Results

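Small nucleolar RNA (snoRNA) genes and the genes that carry snoRNAs in their introns were followed through E14 mouse embryonic stem cells. The 49 members were selected on their names and on their summed counts: each had a symbol beginning with Snora, Snord or Snhg, or was Gas5, and had at least 40 counts summed over the 8 libraries. They are 49 of 55421 identifiers in the count table and 49 of the 157 entries with such a symbol, of which 85 had no count in any library. The members were 33 snoRNA entries, 14 of the H/ACA family (Snora) and 19 of the C/D family (Snord), and 16 host genes, taken as hosts by symbol. Snhg7os holds 0 annotated snoRNAs on its strand, and Snhg10 holds only Scarna13, a guide RNA of Cajal bodies. The last entries inside the sum of 40 were Snora19 with 41 counts, Snord49a with 45 and Snord82 with 48. The first ones outside it were Snord7 with 27 counts, and Snord110 and Snord17 with 23 each.

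The libraries were made with a QuantSeq kit, which counts the 3′ ends of polyadenylated RNA, and form 4 groups of 2 biological duplicates. KO cells lacked the microRNA cluster miR-290-295 and WT cells kept it, and neither was transfected. siTfap4 and siNeg cells were KO cells transfected with a pool of small interfering RNAs (siPOOL, 5 nM, 36 hours) against Tfap4, which encodes an E-box binding transcription factor, or with a negative control pool. All groups share the 129/Ola strain background, gelatin-coated plates, and medium with serum and the cytokine LIF. The labels do not say whether the KO cells are 1 clone. KO and WT libraries were made and sequenced together and the siPOOL libraries as a set of their own, so KO was compared with WT and siTfap4 with siNeg. The titles of the KO and WT libraries also carry suffixes of unstated meaning, one of which (CC) is shared by KO replicate 2 and WT replicate 1.

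Library totals were 8326675 to 8829051 counts in siTfap4 and 9925557 to 12726123 in the other 3 groups, and 15137 genes passed the filter on low counts. Levels are CPM, a library's counts on a common total after scaling with TMM factors, and a gene is called at a Benjamini-Hochberg adjusted p below 0.05 from edgeR's quasi-likelihood test over all tested genes. With 2 libraries a group, 76% of genes set to change 4-fold and 22% of those set to change 2-fold were called in simulated data of the KO and WT design. These genes were drawn from all levels, so the shares do not give the recovery for genes with few counts. As a check of the labels, Tfap4 had 12.4 and 15.8 CPM in siTfap4 libraries, against 34.4 and 37.4 CPM in siNeg libraries (log2 fold change -1.35, edgeR adjusted p = 0.00365, and 0.0575 without siTfap4 replicate 1). Mir295, in the deleted cluster, had 0 counts in the 6 libraries of KO cells, against 80 and 22 counts in WT libraries. All 8 embryonic stem cell markers passed the filter, and 1 was called in KO against WT, Utf1, with a log2 fold change of -0.92 and a call that was lost without any one of the KO or WT libraries. In siTfap4 against siNeg 3 of the 8 were called. Dppa5a had 3.82 and 9.32 CPM in siTfap4 libraries, against 387 and 493 CPM in siNeg libraries, Nanog fell (log2 fold change -1.49, edgeR adjusted p = 0.00403, and 0.0577 without siNeg replicate 1), and Pou5f1 rose (1.02, edgeR adjusted p = 0.0121, and 0.114 without siTfap4 replicate 1 and 0.0934 without siNeg replicate 1). The Pou5f1 call was also lost after a correction for base composition (log2 fold change 0.68, edgeR adjusted p = 0.0629). The part of these markers in the snoRNA and host values of that comparison was not tested.

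snoRNAs are short stable RNAs of the nucleolus. Most guide the chemical modification of ribosomal RNA: C/D snoRNAs pair with it to direct ribose methylation by the enzyme fibrillarin, and H/ACA snoRNAs direct pseudouridine formation by dyskerin. In mammals most are cut from introns that were spliced out of a host transcript, and the spliced host RNA is exported or degraded on its own. Mature snoRNAs carry no poly(A) tail, so a count on a snoRNA entry in these libraries is not a measure of the mature snoRNA pool, and which RNA gave the counts was not tested.

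The sequences of 7 snoRNA entries called in KO against WT or in siTfap4 against siNeg are shown. They were not picked by size of difference alone, and some called entries with larger differences are not printed. Capitals mark the D box (CTGA, the last one in the final 20 bases) and the C box (TGATGA, where it occurs in the first 20 bases) of C/D entries, and the ACA box of H/ACA entries (starting in the final 8 bases). Each is printed 5′ to 3′ from GRCm38. Snord42a lies at chr11:78181299-78181363 on the minus strand, Snord11 at chr1:59704790-59704873 (plus), Snord87 at chr1:9942463-9942549 (minus) and Snord89 at chr1:39548745-39548854 (minus). The H/ACA entries Snora20 at chr17:12922790-12922917, Snora41 at chr1:63179004-63179135 and Snora30 at chr7:127527874-127528003 are on the plus strand.
Snord42a: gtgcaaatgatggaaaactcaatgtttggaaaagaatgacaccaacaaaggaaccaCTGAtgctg
Snord11: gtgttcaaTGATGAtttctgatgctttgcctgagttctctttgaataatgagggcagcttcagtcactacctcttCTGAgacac
Snord87: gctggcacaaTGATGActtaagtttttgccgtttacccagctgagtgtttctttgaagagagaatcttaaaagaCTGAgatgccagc
Snord89: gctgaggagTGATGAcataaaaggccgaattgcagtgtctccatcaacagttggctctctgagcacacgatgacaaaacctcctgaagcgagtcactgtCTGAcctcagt
Snora20: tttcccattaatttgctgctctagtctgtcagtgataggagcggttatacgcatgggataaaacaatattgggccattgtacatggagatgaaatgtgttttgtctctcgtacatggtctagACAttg
Snora41: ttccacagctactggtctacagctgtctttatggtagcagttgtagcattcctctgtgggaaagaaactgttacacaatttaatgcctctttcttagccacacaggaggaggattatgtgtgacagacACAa
Snora30: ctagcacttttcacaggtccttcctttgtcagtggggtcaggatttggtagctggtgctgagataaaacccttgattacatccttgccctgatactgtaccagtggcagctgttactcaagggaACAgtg

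The ACA box was found in 14 of 14 H/ACA entries, which were 128 to 205 bases long. A D box was found in 19 of 19 C/D entries and a C box with exactly the letters TGATGA in 13 of 19, at lengths of 64 to 135 bases. Of the 33 entries, 28 lay inside another annotated gene on the same strand, and 0 of them overlapped an annotated exon of that gene. Entries with such symbols that do overlap one had at most 10 counts (Snord66), so none is a member. Whether the counting left out reads on such overlaps was not tested. These 25 containing genes include the member hosts Snhg3 (around Snora73b), Snhg9 (around Snora78) and Snhg6 (around Snord87). No containing gene was annotated for Snord13, Snord104, Snora57, Snora17 and Snord118. Only 2 of 33 entries hold a run of at least 6 A, Snord49b with 8 and Snord72 with 6, and the 12 entries called lower in KO cells hold runs of 2 to 4.

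The summed level of the snoRNA entries was lower in KO than in WT cells, while none of the 15 tested member hosts was called and, of the 25 genes that contain an entry, Zbed3 alone was called, as higher. Summed over the 33 entries the level was 174 and 168 CPM in KO libraries, against 378 and 488 CPM in WT libraries, a log2 ratio of -1.34. The 2 KO libraries were close to each other and below both WT libraries. The H/ACA entries summed to 138.5 and 132.5 CPM in KO libraries, against 284 and 250 CPM in WT libraries. The C/D entries summed to 35.9 and 35.8 CPM in KO libraries, against 94.6 and 238.5 CPM in WT libraries, so the WT duplicates lay further apart for the C/D than for the H/ACA entries. Snora73b holds much of the H/ACA sum, and without it the log2 ratio over the other entries was -2.08. Snord13 in turn holds much of the C/D sum of WT libraries, with 41.5 and 147 CPM, against 9.18 and 6.52 CPM in KO libraries. Snord13 is among the entries behind the -2.08, and a sum without it is not given. In bulk libraries such as these, fewer cells with an RNA and less of it per cell cannot be told apart.

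**Figure D1:**
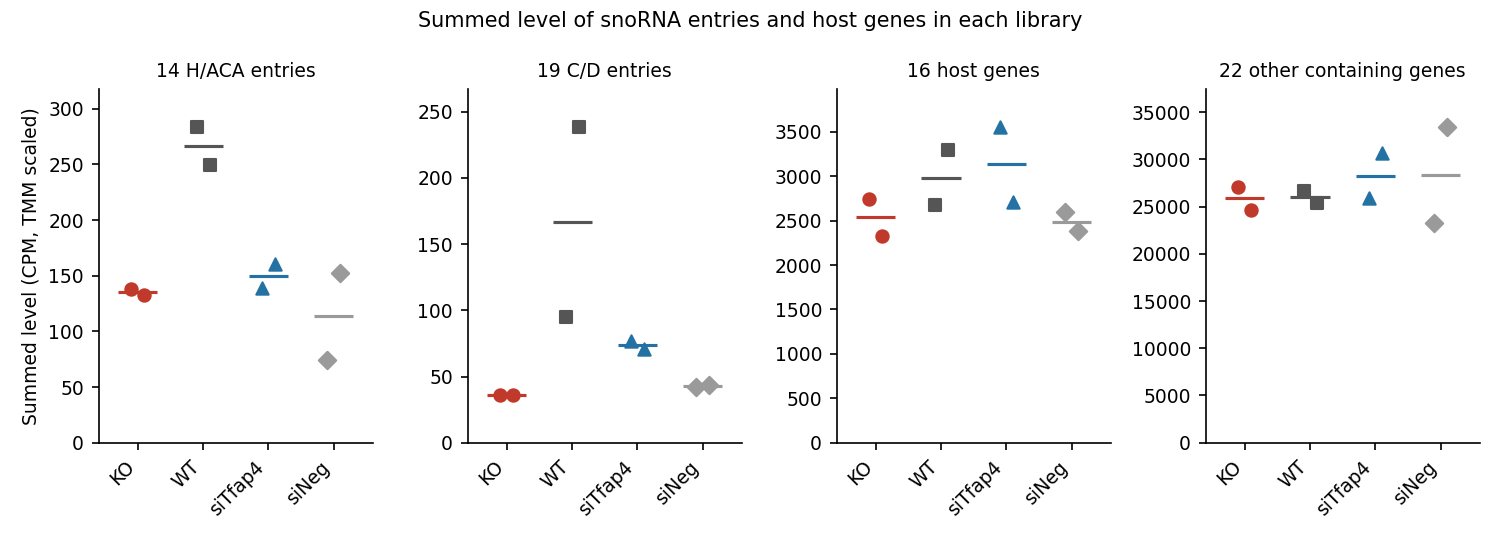
Summed level in CPM (y axis, from 0) of the 14 H/ACA entries, the 19 C/D entries, the 16 host genes and the 22 other genes that contain a snoRNA entry, in KO, WT, siTfap4 and siNeg cells. Points are libraries and bars are means of n = 2; the entries of KO libraries lie below those of WT libraries, while the other containing genes overlap.

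Of the 29 entries that passed the filter on low counts, 12 fell in KO cells and 0 rose, 41.4% called lower against 3.96% of all 15137 tested genes (5.99% of which were called higher). Both KO libraries were below both WT libraries for 23 of the 29, against 28.6% of all tested genes, and the median log2 fold change was -1.75 against -0.01 over all genes. The families gave like counts, with 6 of 12 H/ACA and 6 of 17 C/D entries fallen. The filters bear on these counts. Summed counts were highest in WT for 26 of 33 entries, and 10 entries would miss the sum of 40 without the WT libraries. The 7 entries that passed the low-count filter through the WT libraries alone (Snord42a, Snord11, Snord35a, Snord83b, Snord37, Snora47 and Snora62) were bound to be lower in KO, and 6 of them were called, so their values are a description and their p-values no support. The other 22 had 6 called lower, a median log2 fold change of -1.42, and no overlap in 16. Snora69, Snord82, Snord49a and Snora19 were not tested.

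Snord13, the C/D-like RNA U13, which in human cells is needed to acetylate a cytidine of the small ribosomal subunit RNA, had 9.18 and 6.52 CPM in KO libraries, against 41.5 and 147 CPM in WT libraries. Its log2 fold change was -3.58 (SE 0.50, edgeR adjusted p = 0.000776), and -2.40 without WT replicate 2. Snora20, an H/ACA RNA inside an intron of the chaperonin gene Tcp1, had 3.67 and 2.64 CPM in KO libraries, against 49.3 and 33.2 CPM in WT libraries. The log2 fold change of Snora20 was -3.70 (SE 0.43, edgeR adjusted p = 5.68e-05). Neither gene overlapped between KO and WT, and the Snord13 duplicates of WT differed more from each other than those of Snora20.

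Snord42a, inside the ribosomal protein gene Rpl23a, had 0 and 1 counts in KO libraries, against 39 and 20 counts in WT libraries. The KO over WT ratio was 0.0152 (95% counting interval 0.000379 to 0.0881, edgeR adjusted p = 0.00129). Snord11, inside Nop58, which encodes a core protein of C/D particles, had 0 and 1 counts in KO libraries, against 30 and 28 counts in WT libraries. Its ratio was 0.0155 (0.000385 to 0.0897, edgeR adjusted p = 0.000944). These were the entries nearest to absence in KO cells, and in siTfap4 and siNeg libraries they also had at most 3 counts each. The intervals cover counting error only.

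Snord35a, inside Rpl13a, had 0.765 and 0.660 CPM in KO libraries, against 4.88 and 4.65 CPM in WT libraries. The log2 fold change of Snord35a was -2.72 (SE 0.53, edgeR adjusted p = 0.00305). The calls of Snord13 and Snora20 held without any one of the KO or WT libraries. Those of Snord42a, Snord11 and Snord35a did too, but these entries were tested only because WT libraries passed the filter. The other 7 calls were lost without at least 1 of them and are given next.

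Snord87, inside the host gene Snhg6, had 0.382 and 0.247 CPM in KO libraries, against 1.95 and 5.72 CPM in WT libraries, a log2 fold change of -3.51 (SE 0.71, edgeR adjusted p = 0.0047). Snord83b, inside Rpl3, had 0.688 and 0.495 CPM in KO libraries, against 2.36 and 8.14 CPM in WT libraries, a log2 fold change of -3.09 (SE 0.65, edgeR adjusted p = 0.00647). WT replicate 2 was the higher WT library for both, and without it the log2 fold change was -2.57 for Snord87 (edgeR adjusted p = 0.0658) and -1.96 for Snord83b (0.111). Leaving out 1 library at a time gave ranges of 0.00122 to 0.0658 for Snord87 and 0.000824 to 0.111 for Snord83b.

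Snora41, inside Eef1b2, which encodes a translation elongation factor subunit, had 2.14 and 2.14 CPM in KO libraries, against 19.5 and 6.11 CPM in WT libraries. Its log2 fold change was -2.59 (SE 0.50, edgeR adjusted p = 0.00352), and without WT replicate 1 it was -1.498 with an adjusted p of 0.0899, the highest of a range that began at 0.000278. Snora30, inside Gm42715 and the longer Srcap, had 3.36 and 2.80 CPM in KO libraries, against 10.2 and 7.75 CPM in WT libraries. Its log2 fold change was -1.54 (SE 0.37, edgeR adjusted p = 0.0145), with a leave-out range of 0.0286 to 0.140. Of the distinct words of 31 bases in each entry, 47.1% (Snora41) and 52% (Snora30) are shared with other annotated genes, so reads from such copies could have been split.

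Snora17, with no containing gene, had 2.98 and 0.990 CPM in KO libraries, against 5.28 and 8.43 CPM in WT libraries, a log2 fold change of -1.75 (SE 0.49, edgeR adjusted p = 0.0321). Its adjusted p was 0.302 without KO replicate 2, 0.196 without WT replicate 2, and 0.0501 and 0.0503 without siNeg replicate 1 or 2. Snora47, inside the zinc finger gene Zbed3, had 0.459 and 0.330 CPM in KO libraries, against 3.49 and 1.45 CPM in WT libraries, a log2 fold change of -2.64 (SE 0.73, edgeR adjusted p = 0.0302). Snora62, inside Rpsa, which encodes a protein of the small ribosomal subunit, had 0.841 and 0.495 CPM in KO libraries, against 3.66 and 2.33 CPM in WT libraries, a log2 fold change of -2.15 (SE 0.56, edgeR adjusted p = 0.0215). Without KO replicate 1, KO replicate 2 or WT replicate 1 the last 2 calls were lost, with an adjusted p of up to 0.307 for Snora47 and 0.187 for Snora62. Without WT replicate 1 the log2 fold change of Snora47 was -1.84, and without KO replicate 1 that of Snora17 was -2.77. DESeq2 gave an adjusted p of 0.0710 for Snora47 and 0.0729 for Snora62.

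**Figure D2:**
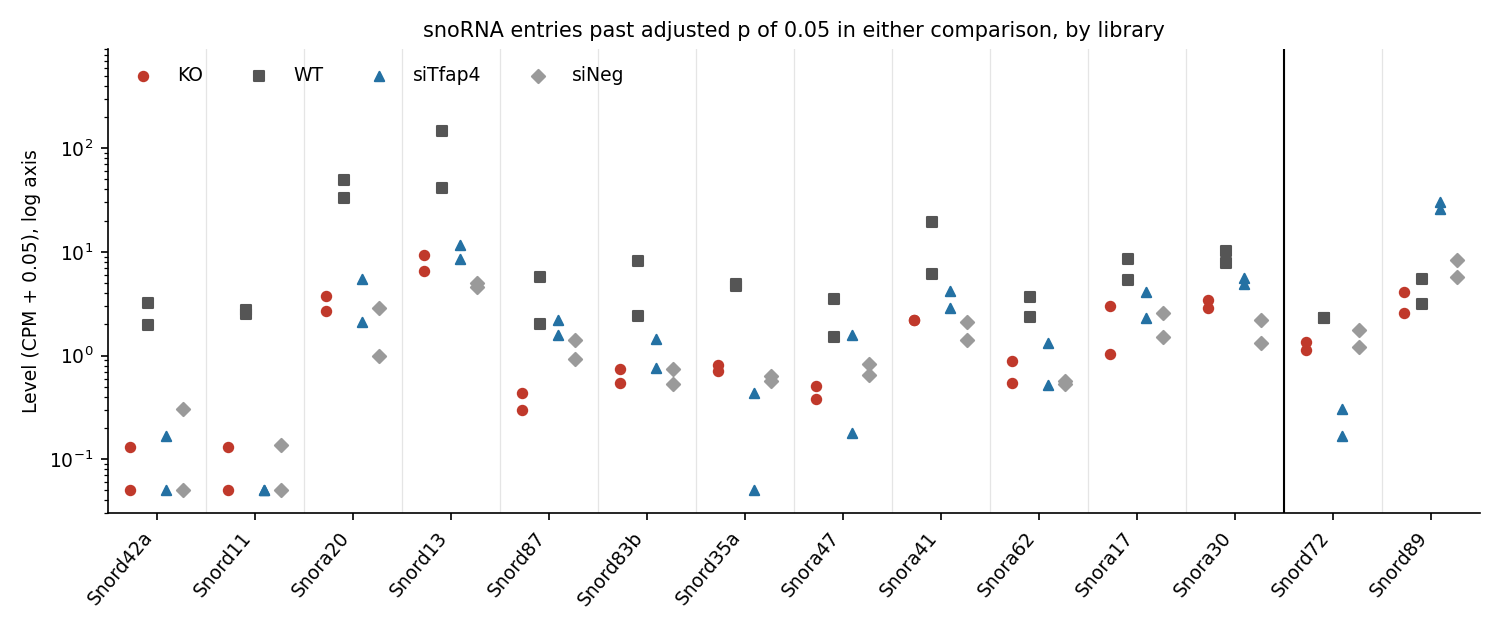
Level in each library (CPM + 0.05, log axis) of the 12 snoRNA entries called lower in KO than in WT cells and, right of the black line, of the 2 further entries called between siTfap4 and siNeg cells. Each point is a library; KO (circles) lie below WT (squares) in the 12, and for Snord89 siTfap4 (triangles) lie above siNeg (diamonds).

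Several entries with high counts did not pass the test. Snora73b, the H/ACA RNA U17 needed to process the small ribosomal subunit RNA, had 107 and 106 CPM in KO libraries, against 167 and 148 CPM in WT libraries, with no overlap, a log2 fold change of -0.57 and an edgeR adjusted p of 0.261. Of the distinct words of 31 bases in Snora73b, 45.1% are shared with other genes. Snord104 had 11.3 and 12.3 CPM in KO libraries, against 13.7 and 22.4 CPM in WT libraries (log2 fold change -0.61, edgeR adjusted p = 0.269). Snord89 had 2.52 and 4.04 CPM in KO libraries and overlapped WT libraries at 3.09 and 5.43 CPM (adjusted p = 0.674), as did Snora57 with 8.64 and 5.53 CPM in KO libraries, against 7.80 and 21.03 CPM in WT libraries (adjusted p = 0.170). Snord49b missed the threshold by little, with 3.14 and 5.11 CPM in KO libraries, against 6.91 and 13.2 CPM in WT libraries (log2 fold change -1.28, edgeR adjusted p = 0.0561). The other 12 entries without a call had log2 fold changes between -2.71 (Snord37) and 0.06 (Snora31, which alone of the 29 lay above 0).

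Some sets of other short RNAs, and markers of another cell type, also fell in KO cells, while small nuclear RNA and histone genes were mostly not called. Of 47 tested snoRNA genes with other symbols 21 fell in KO cells (44.7%, against 3.96% of all genes) and 0 rose. Their median log2 fold change was -1.69. Of 7 tested genes for scaRNAs, the guide RNAs of Cajal bodies, 6 fell (85.7%). The scaRNA sums were 18.5 and 14.4 CPM in KO libraries, against 127 and 126 CPM in WT libraries. Of 13 tested mitochondrial transfer RNA genes 10 fell (76.9%). These summed to 70.3 and 110 CPM in KO libraries, against 200.2 and 259 CPM in WT libraries. Genes for spliceosomal small nuclear RNAs had 2 of 28 called lower (7.14%) and histone genes 1 of 46 (2.17%). A list of other short noncoding RNAs, which holds scaRNA, small nuclear RNA and microRNA genes among others, had 5 of 19 called lower (26.3%). Of these 19, 8 had a log2 fold change above 0, and the median was -0.64. The list summed to 306 and 277.5 CPM in KO libraries, against 280.5 and 335 CPM in WT libraries. How many genes of these sets passed the low-count filter through WT libraries alone was not counted, so the shares are a description. The 6 primitive endoderm markers summed to 9.56 and 9.16 CPM in KO libraries, against 63.6 and 53.9 CPM in WT libraries. Of these, Gata6, Sox17, Dab2 and Pdgfra fell and none was at 0. The 6 fibroblast or feeder markers summed to 10.02 and 20.04 CPM in KO libraries, against 28.5 and 49.9 CPM in WT libraries. Thy1 alone made up most of these sums, with 9.56 and 19.7 CPM in KO libraries, against 26.5 and 48.3 CPM in WT libraries. Only 2 of the 6 markers were tested, Thy1 and Col1a1, and both were called lower. The Col1a1 call was lost without any one of the 8 libraries and by DESeq2 (adjusted p = 0.223), and that of Thy1 without KO replicate 1 (0.285) or WT replicate 2 (0.257). Col3a1 and Postn were at 0 in all 8 libraries. The part of these RNAs and cells in the snoRNA differences was not tested.

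Because an intron and its host are transcribed together, each snoRNA entry was set against the gene that contains it. The difference of their log2 CPM changes was tested with limma over 71 pairs of an annotated snoRNA and its containing gene, 24 of them with a member entry. The pairs share libraries and the test pools the spread over pairs. In KO against WT 13 of 24 member pairs had the entry lower relative to its containing gene and 0 had it higher, against 47.9% lower over all 71 pairs. Of the 13, 7 rest on the entries that passed the filter through WT libraries alone, all 7 of whose pairs were called; among the other 17 pairs 6 were called lower, with a median difference of -1.51. Over the 24 member pairs the median difference was -1.85, while the median log2 fold change of their containing genes was -0.00. Over the 25 containing genes Zbed3, whose protein acts in WNT signalling, rose in KO cells and 0 fell.

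With the prior count of 2 used for the pairs, the difference furthest from 0 among the 24 member pairs was that of Snora47 and Zbed3. It was -3.92 (SE 0.81, limma adjusted p = 2.64e-05). Zbed3 itself had 35.6 and 27.7 CPM in KO libraries, against 10.3 and 7.37 CPM in WT libraries, so this difference joins a lower entry and a higher containing gene. For Snord42a and Rpl23a the difference was -3.57, for Snord11 and Nop58 it was -3.57, and for Snora20 and Tcp1 it was -3.56. None of these 3 containing genes was called. The prior count draws the changes of entries with few counts towards 0, so the order of these differences depends on it. By edgeR the log2 fold change was -5.66 for Snord42a and -5.65 for Snord11, against -2.64 for Snora47. Tcp1 had 246 and 232 CPM in KO libraries, against 261 and 238 CPM in WT libraries, and Nop58 had 911 and 969.9 CPM in KO libraries, against 1083 and 887 CPM in WT libraries. These 4 calls held without any one of the KO or WT libraries, but Snora47, Snord42a and Snord11 were tested only through WT libraries, which leaves Snora20 and Tcp1 as the 1 of these 4 pairs whose direction the filter did not fix. Differences between -2.84 and -1.74 were called for Snord87, Snord35a, Snord83b, Snora41, Snora78, Snord37, Snord65, Snora62 and Snord49b, and each of these was lost without at least 1 library. Snora73b and its host Snhg3 differed by 0.05. Many of the containing genes encode ribosomal proteins, whose pseudogenes share sequence with them, so their own counts are uncertain.

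**Figure D3:**
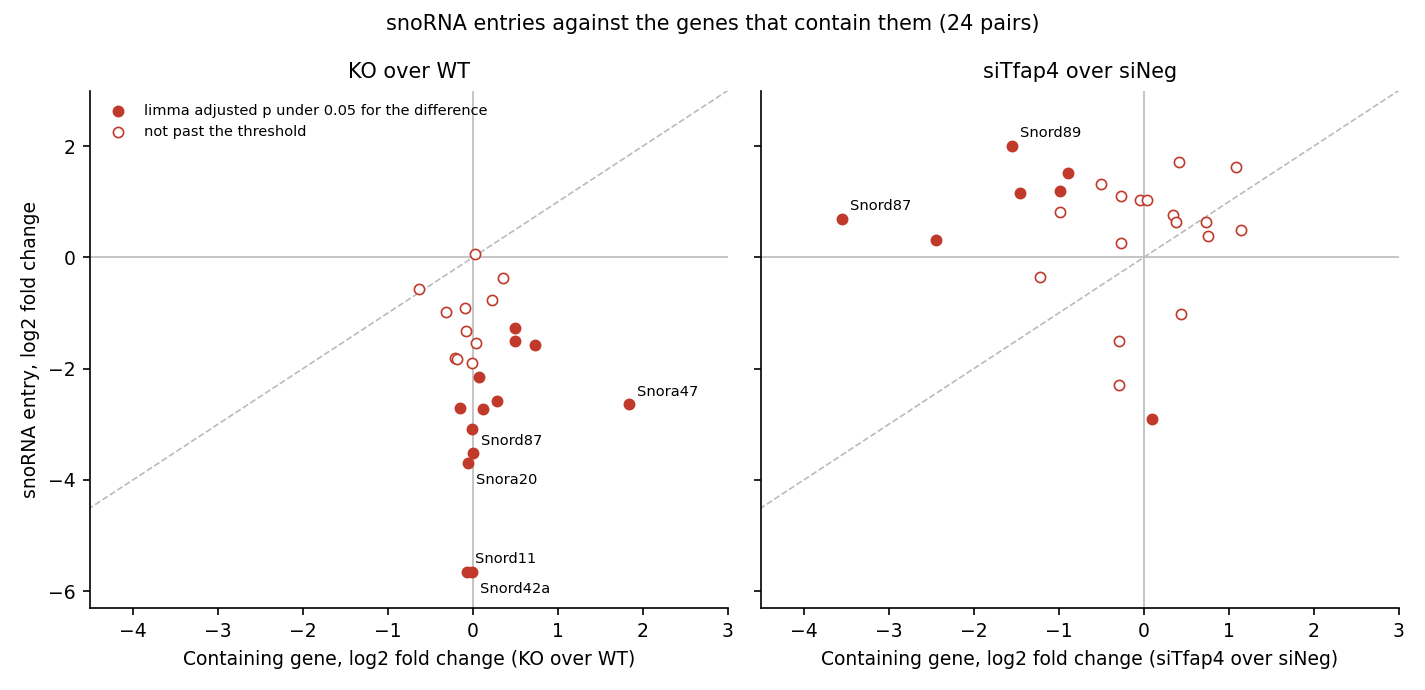
Log2 fold change of a snoRNA entry (y axis) against that of the gene that contains it (x axis) in 24 pairs, for KO over WT (left) and siTfap4 over siNeg (right). Filled points had a limma adjusted p below 0.05 for the difference, and the dashed line marks equal change; on the left 23 of 24 pairs had a difference below 0, and on the right 6 of 24.

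No host gene was called in KO against WT. By edgeR 0 of 15 tested hosts passed, by DESeq2 0 and by limma-voom 0, where 9.95% of all genes were called by edgeR. An unadjusted edgeR p below 0.05 was found for 4 of the 15 hosts and for 3530 of all 15137 genes. The median log2 fold change of the hosts was 0.00. The sums over the 16 hosts were 2745 and 2328 CPM in KO libraries, against 2671 and 3296 CPM in WT libraries, and KO replicate 1 lay above WT replicate 1. Snhg3, host of Snora73b and of Snora73a (2 counts over all libraries), had 1075 and 770 CPM in KO libraries, against 1082 and 1789 CPM in WT libraries (log2 fold change -0.64, adjusted p = 0.199). Without Snhg3 the log2 ratio of the host sums was 0.06, against -0.23 with it. Snhg3 overlaps the longer gene Rcc1 on the same strand, so their counts may be mixed.

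Snhg9, host of Snora78, had 147 and 135 CPM in KO libraries, against 90.1 and 79.6 CPM in WT libraries, with no overlap. Its log2 fold change was 0.73 (SE 0.25, edgeR adjusted p = 0.0759), and corrected for base composition its adjusted p was 0.0427. Snhg9 lies opposite the ribosomal protein gene Rps2, and since the strand setting of the counting is not given, their reads may be mixed. Snhg8, host of Snora24, had 117.5 and 120.1 CPM in KO libraries, against 255 and 161 CPM in WT libraries (log2 fold change -0.81, edgeR adjusted p = 0.179). Snhg17 had 18.8 and 19.8 CPM in KO libraries, against 36.5 and 23.4 CPM in WT libraries (log2 fold change -0.64, edgeR adjusted p = 0.170). Both KO libraries were higher in 2 of 15 hosts, Gas5 and Snhg9, against 28.9% of all genes. They were lower in 4 hosts, Snhg3, Snhg8, Snhg17 and Snhg10, against 28.6%, and for Snhg3 the nearest KO and WT values almost touched.

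Gas5 encodes a growth-arrest RNA whose transcript is kept low by nonsense-mediated decay. It had 407 and 380 CPM in KO libraries, against 286 and 359 CPM in WT libraries, and a log2 fold change of 0.29 (SE 0.22, edgeR adjusted p = 0.486). Snhg1 had 389 and 380 CPM in KO libraries, against 407 and 336 CPM in WT libraries. Snhg6 had 139.7 and 121 CPM in KO libraries, against 122 and 139 CPM in WT libraries, while Snord87 inside it was called lower. Snhg12, with 94.4 and 87.4 CPM in KO libraries, against 92.6 and 89.9 CPM in WT libraries, overlapped as well, as did Snhg5, Snhg11, Snhg14, Snhg15 and Snhg20. The edgeR adjusted p-values of the last 6 lay between 0.607 and 0.993. Snhg18 and Snhg10, with at most 3.25 CPM in any library, had log2 fold changes of -0.67 and -0.59, and Snhg7os was not tested. The 12 called entries include 1 that lies in a member host, Snord87.

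**Figure D4:**
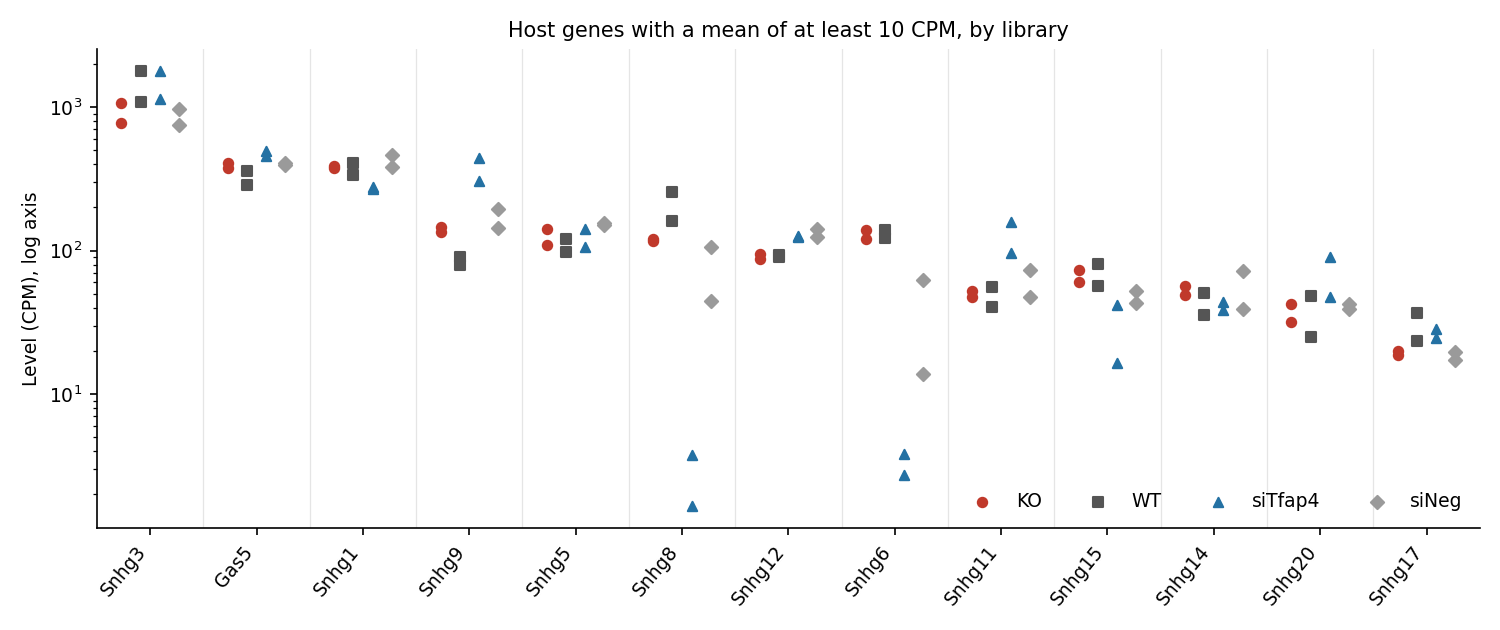
Level in each library (CPM, log axis) of the 13 host genes with a mean of at least 10 CPM over the 8 libraries, with KO, WT, siTfap4 and siNeg libraries as separate points. KO and WT points lie close together in most hosts, and the siTfap4 points of Snhg8 and Snhg6 lie far below those of siNeg.

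Few snoRNA entries were called after Tfap4 knockdown. Of 29 tested entries 2 rose and 1 fell in siTfap4 against siNeg cells, where 4.36% of all genes were called higher and 11.1% lower. The median log2 fold change was 0.69, and 22 of 29 entries had a value above 0. Both siTfap4 libraries were above both siNeg libraries for 14 of 29 entries, against 28.9% of all genes, and below them for 2, against 29.3%. The sums over the 33 entries were 216 and 231 CPM in siTfap4 libraries, against 117 and 196 CPM in siNeg libraries. The siNeg duplicates lay further apart than the siTfap4 duplicates, and without siNeg replicate 1 the log2 ratio of the sums was 0.19, against 0.51 with both.

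Snord89, a C/D entry inside the noncoding gene Gm15832, rose. It had 25.9 and 30.2 CPM in siTfap4 libraries, against 8.23 and 5.61 CPM in siNeg libraries, a log2 fold change of 2.01 (SE 0.35, edgeR adjusted p = 0.0012) that was called without any one of these libraries. Snora30 rose as well, with 5.61 and 4.84 CPM in siTfap4 libraries, against 1.29 and 2.13 CPM in siNeg libraries, a log2 fold change of 1.62 (SE 0.46, edgeR adjusted p = 0.0258). Without siTfap4 replicate 1 the adjusted p of Snora30 was 0.192 and without siNeg replicate 1 it was 0.201. Snord72, inside Rpl37, fell, with 2 and 1 counts in siTfap4 libraries, against 20 and 12 counts in siNeg libraries, a ratio of 0.126 (95% counting interval 0.0248 to 0.404, edgeR adjusted p = 0.0296). Its call was lost without siTfap4 replicate 1 (0.186), without siTfap4 replicate 2 (0.147), without siNeg replicate 1 (0.168) and after the correction for base composition (0.0702), and its log2 fold change was -2.90, or -3.51 without siTfap4 replicate 1. Snord13 did not pass, with 11.5 and 8.49 CPM in siTfap4 libraries, against 4.97 and 4.55 CPM in siNeg libraries (log2 fold change 1.06, edgeR adjusted p = 0.217).

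The siPOOL libraries differed in a trend with base composition. Over all tested genes the median log2 fold change of siTfap4 against siNeg was -0.62 where the last 100 bases of the gene held at most 30% GC, and 0.43 where they held over 60%. In KO against WT the same medians were -0.01 and -0.04. The last 100 bases of Snord72 (81 bases in all) held 29.6% GC and those of Snord89 49%. After the correction Snord89 had a log2 fold change of 1.80 with an edgeR adjusted p of 0.00354. Between 19271 and 19432 genes had a count in siTfap4 libraries, and between 20264 and 21183 in the other 6.

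Host genes moved in both directions after Tfap4 knockdown, and 4 of 15 were called, 2 lower (13.3%, against 11.1% of all genes) and 2 higher (13.3%, against 4.36%). Snhg8 had 1.66 and 3.77 CPM in siTfap4 libraries, against 105 and 44.4 CPM in siNeg libraries. Its log2 fold change was -4.77 (SE 0.48, edgeR adjusted p = 4.11e-05), and it was called without any one of these libraries, with log2 fold changes down to -5.51 without siTfap4 replicate 2 and up to -4.03 without siNeg replicate 1. Snhg6 had 3.82 and 2.71 CPM in siTfap4 libraries, against 62.5 and 13.8 CPM in siNeg libraries, a log2 fold change of -3.55 (SE 0.61, edgeR adjusted p = 0.00285). Without siTfap4 replicate 1 the adjusted p of Snhg6 was 0.0856, and its log2 fold change was -2.10 without siNeg replicate 1 and -4.27 without siNeg replicate 2. Both hosts end in AT-rich sequence, with 29% (Snhg8) and 24% (Snhg6) GC in the last 100 bases, and corrected for base composition their log2 fold changes were -4.27 for Snhg8 and -2.76 for Snhg6. In untreated KO libraries Snhg6 had 139.7 and 121 CPM, and its log2 fold change in siNeg against KO cells was -1.77 (edgeR adjusted p = 0.179).

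Snhg9 had 445 and 304 CPM in siTfap4 libraries, against 145 and 194 CPM in siNeg libraries, and rose with a log2 fold change of 1.15 (SE 0.25, edgeR adjusted p = 0.00617). The adjusted p was 0.0945 without siTfap4 replicate 1 and 0.0844 without siNeg replicate 1. Snhg11, annotated as protein-coding in GENCODE M21, had 158 and 95.7 CPM in siTfap4 libraries, against 73.6 and 47.4 CPM in siNeg libraries, and rose with a log2 fold change of 1.07 (SE 0.29, edgeR adjusted p = 0.022). This call was lost without siTfap4 replicate 1 (0.296), without siNeg replicate 2 (0.151) and after the correction for base composition (0.0823). Snhg3 had 1777 and 1146 CPM in siTfap4 libraries, against 971 and 754 CPM in siNeg libraries (log2 fold change 0.76, edgeR adjusted p = 0.0876), and after the correction 1.37 with an adjusted p of 0.0104. Snhg1 had 269 and 279 CPM in siTfap4 libraries, against 386 and 468 CPM in siNeg libraries (log2 fold change -0.64, edgeR adjusted p = 0.0620, and 0.0405 by DESeq2).

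The other hosts with at least 10 CPM were not called. Gas5 had 497 and 454 CPM in siTfap4 libraries, against 395 and 410 CPM in siNeg libraries (log2 fold change 0.24, edgeR adjusted p = 0.492). Snhg15 had 16.6 and 41.9 CPM in siTfap4 libraries, against 43.3 and 52.3 CPM in siNeg libraries (-0.70, adjusted p = 0.178). Snhg20 had 90.6 and 47.4 CPM in siTfap4 libraries, against 42.5 and 39.4 CPM in siNeg libraries (0.75, adjusted p = 0.141). These groups did not overlap, and the 2 siTfap4 libraries of Snhg15 and Snhg20 differed by more than the siNeg ones. Snhg12 and Snhg14, the imprinted host of the Snord116 cluster, overlapped, Snhg5 was lower in both siTfap4 libraries and Snhg17 higher, and their log2 fold changes lay between -0.42 and 0.52.

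The promoters of Snhg9 and Snhg11 are printed because both hosts rose after knockdown of an E-box factor. They run from 250 bases before to 50 after the gene start (RefSeq, GRCm38.p6), with Snhg9 at chr17:24719916-24720215 on the minus strand and Snhg11 at chr2:158375463-158375762 on the plus strand. Capitals mark CACGTG in Snhg9 and CAGCTG in Snhg11. Both words are palindromes, so 1 strand covers both, and each is a case of the general E-box CANNTG.
Snhg9: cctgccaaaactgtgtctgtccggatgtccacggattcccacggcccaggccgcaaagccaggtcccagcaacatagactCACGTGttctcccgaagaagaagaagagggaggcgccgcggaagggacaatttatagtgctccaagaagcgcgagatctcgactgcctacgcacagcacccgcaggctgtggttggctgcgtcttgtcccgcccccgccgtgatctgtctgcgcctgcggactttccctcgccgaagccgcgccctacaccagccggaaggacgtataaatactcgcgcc
Snhg11: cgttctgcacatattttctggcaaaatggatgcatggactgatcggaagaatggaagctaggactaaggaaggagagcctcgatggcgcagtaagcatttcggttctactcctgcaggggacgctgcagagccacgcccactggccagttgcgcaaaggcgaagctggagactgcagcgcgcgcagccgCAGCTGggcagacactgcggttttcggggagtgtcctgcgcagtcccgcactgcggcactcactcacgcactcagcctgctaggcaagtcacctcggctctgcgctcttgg
CAGCTG was found in 3 of 15 host promoters (Snhg11, Snhg15 and Snhg7os), against 18.3% of 27025 gene promoters of the same length. CACGTG was found in 2 of 15 (Snhg15 and Snhg9), against 8.1%, and CANNTG in 9 of 15, against 75.0%. The promoter of Snhg8 held none of them, and Snhg6 had no entry. These matches describe letters and not binding.

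After Tfap4 knockdown member pairs were called at about the share of all pairs. Of 24 member pairs 6 had the entry higher relative to the containing gene and 1 had it lower. Over all 71 pairs, which include these 24, the shares were 26.8% higher and 4.23% lower. In the 6 higher pairs the containing gene had a lower mean in siTfap4 than in siNeg libraries, which picking such pairs favours. For Snord87 and Snhg6 the difference was 3.77 (SE 0.70, limma adjusted p = 5.61e-06): Snord87 had 2.17 and 1.53 CPM in siTfap4 libraries, against 1.37 and 0.871 CPM in siNeg libraries, and was not called, while Snhg6 fell. For Snord89 and Gm15832 it was 3.41 (SE 0.69, limma adjusted p = 2.25e-05), with Gm15832 at 1.40 and 1.65 CPM in siTfap4 libraries, against 5.66 and 3.29 CPM in siNeg libraries. Both pair calls held without any one of these libraries. Gm15832, Zbed3 and Ipo7 end in AT-rich sequence (28%, 28% and 29% GC in the last 100 bases), and corrected for base composition their log2 fold changes were -1.02 for Gm15832 (edgeR adjusted p = 0.177, against -1.55 and 0.0451 without the correction), -1.89 for Zbed3 and -0.99 for Ipo7. The pair test was not corrected for base composition. The other 4 higher pairs were Snora23 in the importin gene Ipo7 (2.65), Snora21 in Rpl23 (2.31), Snord43 in Rpl3 (2.08) and Snora47 in Zbed3 (2.06), and each was lost without at least 1 library. Snord72 in Rpl37 was the lower pair, at -2.26, and was lost in the same way.

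Genes for the core proteins of snoRNA particles were not called in KO cells, and 4 of 18 genes for assembly and processing were (22.2%, against 9.95% of all genes). Of the C/D core genes (Fbl, Nop56, Nop58 and Snu13) 0 of 4 were called in KO against WT; Nop56 had 209 and 206 CPM in KO libraries, against 313 and 262 CPM in WT libraries (edgeR adjusted p = 0.205), and of the H/ACA core genes (Dkc1, Nhp2, Nop10 and Gar1) 0 of 4. Both KO libraries were below both WT libraries for 4 of the 4 H/ACA core genes, against 28.6% of all tested genes. Their median log2 fold change was -0.45, against -0.01 over all genes. Dkc1, which encodes dyskerin, had 762 and 932 CPM in KO libraries, against 952 and 1144 CPM in WT libraries, and Nop10 had 249 and 264.5 CPM in KO libraries, against 475 and 378 CPM in WT libraries (edgeR adjusted p = 0.0633). Among the assembly genes Pih1d1, a subunit of the R2TP chaperone complex, rose with a log2 fold change of 0.94. Its partners Ruvbl2 (-0.82) and Rpap3 (-0.84) and the C/D assembly factor Znhit6 (-0.82) fell. All 4 calls were lost without any one of the KO or WT libraries. Of 12 nonsense-mediated decay factors 0 were called, and 0 had an unadjusted p below 0.05, by edgeR. Below it lay 1 of 4 C/D core genes and 1 of 4 H/ACA core genes, against 3530 of all 15137 genes.

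In siTfap4 against siNeg cells single members of these lists were called. Gar1, an H/ACA core protein gene, fell to 6.63 and 21.7 CPM in siTfap4 libraries, against 149 and 109 CPM in siNeg libraries (log2 fold change -3.18, SE 0.40, edgeR adjusted p = 0.000166). The other 3 H/ACA core genes had log2 fold changes above 0. Shq1, the dyskerin chaperone, fell to 5.48 and 5.07 CPM in siTfap4 libraries, against 21.1 and 22.9 CPM in siNeg libraries (-2.06, edgeR adjusted p = 0.000285). Fbl, which encodes fibrillarin, fell (-1.34, edgeR adjusted p = 0.0181), as did Ruvbl2 (-1.22) and Parn (-1.03), a deadenylase that trims H/ACA RNA ends, while Znhit6 rose (0.78). Among decay factors Smg8 fell (-3.37, edgeR adjusted p = 0.000178), while Smg9 (1.15) and the helicase gene Upf1 (0.80) rose. The calls of Gar1, Shq1 and Smg8 held without any one of these libraries, with log2 fold changes between -4.30 and -2.58 for Gar1 and between -4.79 and -2.71 for Smg8, and the others were lost without at least 1. Without siTfap4 replicate 2 that of Fbl was -2.08, and without siTfap4 replicate 1 that of Smg9 was 0.52. Smg8 and Shq1 end in AT-rich sequence (20% and 26% GC in the last 100 bases), where the median log2 fold change over all genes was -0.62. Smg9 ends in 58% GC, and its call was lost after the correction for base composition (log2 fold change 0.75, edgeR adjusted p = 0.182). For scale, 15.4% of all genes were called in this comparison.

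Control siPOOL and untreated KO cells were also set side by side, although the library set, the transfection and the control siPOOL cannot be told apart there, and both groups also serve in the other comparisons. In siNeg against KO 0 of 44 tested members were called by edgeR, where 0.00661% of all genes (1 gene) were. By DESeq2 and by limma-voom 0 members were called. By edgeR 6 of the 44 had an unadjusted p below 0.05, as did 1737 of all 15137 genes. The entries summed to 117 and 196 CPM in siNeg libraries and to 174 and 168 CPM in KO libraries. Snora20 stayed low in all 6 libraries of KO cells, with 0.942 to 5.43 CPM, and so did Snord11, with at most 1 count in each.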

How the data were processed

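Gene counts of 8 libraries were used as deposited by the authors: whole-number counts per Ensembl gene, from QuantSeq 3′ libraries, with the build GRCm38 and the trimmer Trim Galore named in the submitters' processing notes. Which aligner, counter, strand setting and annotation the authors used is not given in the sources used here. Symbols were found for 99.5% of 55421 identifiers, and 267 had none. Coordinates and snoRNA sequences come from GENCODE M21 (GRCm38), promoters from RefSeq. The containing gene of an entry is the shortest gene around it on its strand that is no short RNA.

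Genes were filtered with filterByExpr, which left 15137 (29 of 33 entries, 15 of 16 hosts), and scaled with TMM factors. edgeR 4.0.16 in R 4.3.3 fitted 4 group means to 8 libraries (quasi-likelihood, robust, not the legacy fit, 4 residual degrees of freedom). p-values were adjusted over all tested genes with the Benjamini-Hochberg method and a threshold of 0.05. They use the spread of all 4 groups, and their duplicates are labelled biological. Entry and containing gene were compared with limma 3.58.1 on log2 CPM with a prior count of 2, adjusted over 71 pairs. Intervals of ratios are exact 95% intervals for counts. CPM, log2 values and sums were computed here.

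The members and lists were chosen with earlier results of these data known. The text names the called members, the 8 entries and the hosts with the highest mean levels (hosts from 10 CPM), the 3 entries on each side of the sum of 40, the genes that contain a called entry, and called list genes or else the most abundant; 1 called list gene and 1 entry's sequence are not reported here. Other genes, such as those of called pairs, were named with their values known. In simulated data 2-fold changes were recovered for 22% (KO design) and 23% (siTfap4 design) of genes and 4-fold changes for 76% in both, with 5 and 14 false calls among 14689 and 14653 genes tested. Duplicates differed by more than counting error (chi-square per degree of freedom 11.35 in KO, 18.85 in WT, 30.47 in siTfap4, 37.73 in siNeg). Alternatives were DESeq2 1.42.0, limma-voom, other scalings and count filters, the replicate number as a block, the 4 libraries of a comparison alone, and each library left out, where a group's single library is taken to vary as the rest do. A lowess correction for GC in the last 100 bases (span 0.3), alone and with the block, and the comparison with other snoRNA genes were added after seeing the data.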

Additional observations from a re-analysis of the deposited data

How the results depend on the processing

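In the 2 comparisons within a library set no called value of a named gene changed its direction under any alternative run. Of 1590 recomputed values of the 44 tested members 39 lost a call and 28 gained one; of 573 recomputed values of the 32 calls on list and containing genes 122 were no longer called. In KO against WT the number of snoRNA entries called lower was 12, and 6 with a filter of at least 1 CPM in 4 libraries, which tests fewer genes; leaving out 1 library at a time gave 8 to 14. Entries called higher stayed at 0. Hosts called higher were 1 with the 4 libraries alone, with the GC correction and with the GC correction plus replicate block, hosts called lower were 1 with the 4 libraries alone, and leave-outs gave 0 to 1 higher and 0 lower. H/ACA core genes called were 1 by DESeq2 and with the 4 libraries alone (leave-outs 0 to 1; C/D core 0), assembly genes 2 with library totals or the GC correction and 1 with no filter or the replicate block (leave-outs 0 to 5), decay factors 0 in leave-outs, and other short RNA genes 2 with at least 1 CPM in 4 libraries (main value 5, leave-outs 2 to 7). Genes called in all were 629 to 1566. The log2 ratio of the entry sums was -2.08 without Snora73b and -1.51 to -1.14 in leave-outs, and that of the host sums 0.0604 without Snhg3 and -0.38 to -0.07. Pairs called lower were 10 (without KO replicate 2) to 41, against 34 with all libraries, and 0 were called higher.

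In siTfap4 against siNeg, entries called lower were 0 by DESeq2, with the GC correction and with the GC correction plus replicate block (leave-outs 0 to 1), and entries called higher were 1 with the last of these (leave-outs 1 to 3). Hosts called lower were 1 with no filter (leave-outs 1 to 3) and hosts called higher 0 to 4. H/ACA core genes called were 2 by DESeq2 and by limma-voom (leave-outs 1 to 2, C/D core 0 to 1), assembly genes 1 to 5, and decay factors 2 with library totals and with the 4 libraries alone (leave-outs 1 to 4). Other short RNA genes called, 2 in the main fit, were 1 by limma-voom, with library totals, with at least 1 CPM and with the GC correction, and 0 with no filter (leave-outs 1 to 3). Genes called in all were 522 to 2961. The log2 ratio of the sums was 0.19 to 0.94 for entries and 0.13 to 0.52 for hosts, and 0.0428 for hosts without Snhg3. Pairs called higher were 7 (without siNeg replicate 1) to 23, and lower 2 to 4. In siNeg against KO the genes called, 1 in the main fit, were 138 by DESeq2, 11 with DESeq2 size factors, 120 with no filter, 0 with the replicate block and 2 with the 4 libraries alone (leave-outs 1 to 76, members 0 to 1). The cause of these moves was not tested where the setting itself does not give it.

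Same-numbered libraries did not deviate together (correlation -0.061 for KO and WT, 0.126 for siTfap4 and siNeg), so the numbers were not taken to pair them. With the replicate block 12 entries were called lower in KO, the adjusted p of Snora17 was 0.0707, and 37 pairs were lower. In simulated data 2-fold changes were mostly not recovered over genes of all levels. Most entries have under 10 CPM, and the recovery at such levels was not simulated.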

Other observations

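Among snoRNA genes outside the members, 2 with provisional symbols were much lower after Tfap4 knockdown; they were chosen after their values were seen. Gm24539, inside the zinc finger gene Zfp808, had 0.382 and 1.53 CPM in siTfap4 libraries, against 20.9 and 13.7 CPM in siNeg libraries, a log2 fold change of -4.14 (edgeR adjusted p = 7.43e-05). Zfp808 had 3.82 and 3.66 CPM in siTfap4 libraries, against 8.997 and 3.97 CPM in siNeg libraries, and the difference between the changes of entry and gene was -3.46 (limma adjusted p = 2.07e-05). Gm24095, inside Zfp934, had 0.637 and 1.77 CPM in siTfap4 libraries, against 12.7 and 8.03 CPM in siNeg libraries (log2 fold change -3.08, edgeR adjusted p = 0.000826). These go opposite to the median over the 47 tested snoRNA genes with other symbols, which was 0.92 in this comparison. In untreated cells Gm24539 had 10.9 and 7.84 CPM in KO libraries, against 12.6 and 10.8 CPM in WT libraries.

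Histone genes, whose main transcripts also lack a poly(A) tail, had 1 of 46 tested genes called lower and 0 higher in KO against WT cells, where 3.96% of all genes were called lower and 5.99% higher. In siTfap4 against siNeg cells 5 of 46 histone genes rose (10.9%, against 4.36% of all genes) and 0 fell (against 11.1%), with sums of 288 and 288.5 CPM in siTfap4 libraries, against 159 and 192 CPM in siNeg libraries.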
